A study of Mus musculus with 2 samples.

Results

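The genes described here are 10 genes of the adipokine system of mouse fat, chosen by name from the 24862 genes of the deposited table. They are the hormone genes Adipoq, Lep and Retn, the secreted or released factor genes Cfd, Rbp4 and Nampt, the adiponectin receptor genes Adipor1 and Adipor2, and the adipocyte genes Adig and Car3. All 10 had a row of their own, and all 10 passed the filter of 10 or more counts in at least 1 library that left 18911 genes. Polyadenylated RNA was sequenced from GFP+ cells of the stromal vascular fraction of inguinal white fat, which is the collagenase-released mixture of cells other than floating adipocytes. By the design text GFP+ means Pref-1+, and Pref-1, the Dlk1 product, is a marker of early adipose precursors. One library came from Sox9 floxed mice, titled WT, and the other from Sox9 PreASKO mice, titled KO. All animals were males 3 weeks old that had received doxycycline on postnatal day 1, and the labels do not spell out the Cre or reporter alleles. The design text gives a pool of 6 without saying whether that is per genotype. With 1 pooled library per genotype no difference has a replicate check and no p-value was computed.

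Adipokines are proteins that fat cells release into blood. Adiponectin, the product of Adipoq, is assembled into oligomers and is bound by the membrane proteins AdipoR1 and AdipoR2, which are known for signalling through AMP-activated kinase and PPAR-alpha. Leptin reports fat stores to the brain, and resistin is a hormone of mouse adipocytes. Most of these genes are known to be switched on late in adipocyte differentiation by PPAR-gamma and C/EBP factors, whereas Adipor1 is expressed in many tissues.

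The 250 bases before the annotated start of 4 of these genes are shown, 5′ to 3′ on the gene's strand, because they belong to the adiponectin gene, the members with the lowest ratios and the hormone gene that was higher. RefSeq sequences of build GRCm38.p6 were matched by symbol, which succeeded for 9 of the 10 genes. Capitals mark ACAAT, a core bound by SOX factors, and TTGCNNAA, a form of the C/EBP site, each searched on both strands.
Adipoq: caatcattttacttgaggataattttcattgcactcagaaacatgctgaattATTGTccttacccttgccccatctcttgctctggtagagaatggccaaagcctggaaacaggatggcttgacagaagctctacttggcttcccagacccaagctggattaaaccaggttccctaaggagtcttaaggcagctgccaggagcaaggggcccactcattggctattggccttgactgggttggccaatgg
Rbp4: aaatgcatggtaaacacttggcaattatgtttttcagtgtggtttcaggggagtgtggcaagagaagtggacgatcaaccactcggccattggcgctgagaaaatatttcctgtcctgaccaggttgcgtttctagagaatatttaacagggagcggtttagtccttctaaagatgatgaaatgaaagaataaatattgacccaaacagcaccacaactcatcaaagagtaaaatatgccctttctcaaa
Retn: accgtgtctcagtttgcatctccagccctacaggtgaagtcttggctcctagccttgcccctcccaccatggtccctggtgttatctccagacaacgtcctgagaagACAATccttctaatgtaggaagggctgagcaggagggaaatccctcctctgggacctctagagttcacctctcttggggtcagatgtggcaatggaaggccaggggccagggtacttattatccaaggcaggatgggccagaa
Lep: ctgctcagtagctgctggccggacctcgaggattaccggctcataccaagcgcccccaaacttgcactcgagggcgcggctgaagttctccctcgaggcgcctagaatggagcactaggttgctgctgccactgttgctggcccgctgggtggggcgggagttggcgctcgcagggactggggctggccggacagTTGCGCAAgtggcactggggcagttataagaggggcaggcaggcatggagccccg
These windows lie at chr16:23146286-23146535 on the plus strand for Adipoq, chr19:38125322-38125571 on the minus strand for Rbp4, chr8:3655520-3655769 on the plus strand for Retn and chr6:29059971-29060220 on the plus strand for Lep. ACAAT was found in a window of 4 of the 9 genes, Adipoq, Retn, Adipor1 and Adipor2, and in 27.7% of all 32851 promoter windows of this length. TTGCNNAA was found in 2 of the 9, Lep and Rbp4, and in 9.56% of all windows. In Lep the letters were TTGCGCAA, starting 55 bases before the annotated start and reading the same on both strands. In Rbp4 they were TTATGCAA on the minus strand of the window, and stood before a second annotated start inside the gene rather than in the window printed. A match is a run of letters and no measure of binding. No window of these genes held both a SOX and a C/EBP match.

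Sox9, the gene targeted in these mice, had 228 counts in the floxed and 73 in the PreASKO library. Its ratio of PreASKO to floxed was 0.414 (0.313 to 0.541). Counts were summed over the whole gene, so this is a partial check of the deletion. Library totals were 37705236 counts for floxed and 29172653 for PreASKO, and levels are in CPM, that is, scaled so that each library sums to 1000000. Gene positions are those of RefSeq GRCm38.p6. Intervals in parentheses are exact 95% intervals and cover counting error only. Dlk1 itself stood at 28.2 and 24.0 CPM, while the macrophage gene Lyz2 stood at 2612 and 4408 CPM, so macrophage transcripts were abundant in both libraries. In a bulk library, fewer cells of a type and less RNA per cell cannot be told apart.

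Of the 10 genes, 8 were lower in PreASKO and 2, Adipor1 and Lep, were higher, where 54.2% of all tested genes were lower. Adig and Cfd are among the 8 and came out higher when the libraries were scaled by 18 extracellular matrix genes of stromal cells instead of their totals. Any ratio of PreASKO to floxed levels between 0.586 and 1 turns above 1 under that scaling. Scaled by library totals, the counting intervals of the libraries did not overlap for any of the 10 genes. The share of all tested genes for which this holds was not computed, so it is not read as a trait of these genes. After scaling by matrix genes the ratio intervals of Adipor2 (0.891 to 1.12) and Nampt (0.870 to 1.10) included 1. The median log2 fold of the 10 was -0.75 with 1 CPM added to each level, so that differences of low genes are understated, beside -0.06 over all tested genes. On that scale 1 member, Rbp4, was more than 2-fold lower, where 5.94% of all genes were, and 0 members were more than 2-fold higher, where 3.10% were. The deposited table splits counts into a raw and a repeat-distributed column, and the sources used here do not define the latter. All counts of Lep, Retn, Adipor1 and Adipor2 and at least 98.8% of those of Cfd, Rbp4 and Car3 were repeat-distributed, so the values of these 7 genes, and every ratio of counts that involves them, rest on that column. The counts of Adipoq, Nampt and Adig were all raw. Together the 10 genes held 0.175% of floxed and 0.107% of PreASKO counts, most of it from Car3.

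**Figure D1:**
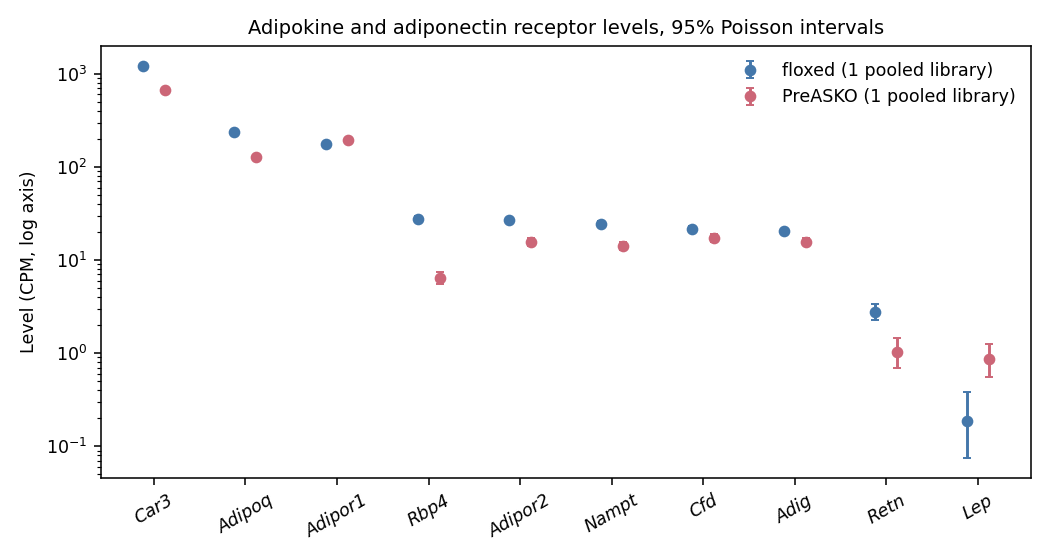
Level of each gene in CPM, on a log axis, in the floxed library and the PreASKO library, with 95% Poisson intervals that cover counting error only. Car3 is the most abundant in both libraries in CPM, Adipor1 and Lep are the genes with the PreASKO point above the floxed point, and Lep and Retn have the widest intervals. Adig and Cfd, lower here, are higher in PreASKO after scaling by matrix genes.

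Adipoq, at chr16:23146536-23157968, had 8915 counts in the floxed library and 3703 in the PreASKO library, or 236 CPM (232 to 241) and 127 CPM (123 to 131). Its ratio was 0.537 (0.517 to 0.558). All of these counts came from the authors' raw column. The floxed level lay well above the PreASKO level, beyond counting error, and the ratio was 0.916 (0.881 to 0.952) after scaling by matrix genes.

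Ratios between genes within a library do not depend on scaling, although they can set raw against repeat-distributed counts, as for Adipoq and Plin1, whose counts were all repeat-distributed. Adipoq had 1.72 counts per count of Plin1, the perilipin gene of the lipid droplet coat, in floxed cells and 1.46 in PreASKO, a difference by a factor of 0.849 (0.798 to 0.903). Against Cidec, a lipid droplet fusion gene, the factor was 0.964 (0.882 to 1.05), with 4.31 and 4.16 counts of Adipoq per count of Cidec. The interval for Cidec includes 1, so a difference between the pair was not detectable at this depth. Against Fabp4, the adipocyte fatty acid binding protein gene, the factor was 0.617 (0.592 to 0.643), and against Pparg it was 0.639 (0.604 to 0.676). Adipoq was thus lower in PreASKO relative to both of these genes. Precursors are also known to express both, and the part of any cell type in these factors was not tested. Against Lum, a matrix proteoglycan gene of stromal cells, the factor was 1.05, at the edge of counting error, and against the collagen gene Col1a1 it was 0.787 (0.757 to 0.819).

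Assembly and secretion genes of adiponectin were mostly higher in PreASKO. Of 8 measured genes for folding, hydroxylation and retention of the hormone in the endoplasmic reticulum or for regulation of its secretion, 6 were higher and 2 lower in PreASKO, and their median log2 fold was 0.19. Ero1l, an oxidase of the endoplasmic reticulum that promotes adiponectin secretion, stood at 37.7 and 44.0 CPM, giving a ratio of 1.17 (1.08 to 1.26). Gstk1, also named DsbA-L, which promotes adiponectin oligomers, had a ratio of 1.24 (1.09 to 1.40). Both genes are widely expressed outside fat cells.

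The adiponectin receptor genes differed in opposite directions when scaled by library totals. Adipor1, at chr1:134415378-134433351, had 6569 counts in floxed and 5678 in PreASKO cells, or 174 CPM (170 to 178) and 195 CPM (190 to 200). Its ratio was 1.12 (1.08 to 1.16). Adipor2, at chr6:119353150-119417699, had 1008 and 456 counts, or 26.7 CPM (25.1 to 28.4) and 15.6 CPM (14.2 to 17.1). Its ratio was 0.585 (0.522 to 0.654). Floxed cells held 6.52 counts of Adipor1 per count of Adipor2 and PreASKO cells 12.5, a difference by a factor of 1.91 (1.70 to 2.15). This factor does not depend on how the libraries are scaled, but all counts of both genes were repeat-distributed. Scaling by matrix genes gave Adipor1 a ratio of 1.91 (1.84 to 1.98) and Adipor2 a ratio of 0.998 (0.891 to 1.12). Per kilobase of annotated exon, Adipor1 stood at 34.7 CPM per kilobase in floxed cells against 4.47 for Adipor2. Counts of the ligand gene Adipoq per count of Adipor2 differed by a factor of 0.918 (0.816 to 1.03), within counting error of 1. Per count of Adipor1 the factor was 0.481 (0.456 to 0.506), so less ligand transcript stood beside each Adipor1 transcript in PreASKO.

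Other routes of adiponectin signalling were mixed under scaling by library totals. Of 15 measured genes of the receptor pathway 7 were lower and 8 higher, and their median log2 fold was 0.03, or 0.75 after scaling by matrix genes. Cdh13, which encodes T-cadherin, a surface protein that binds adiponectin oligomers, stood at 67.7 CPM in floxed and 69.0 CPM in PreASKO cells, giving a ratio of 1.02 (0.960 to 1.08). Appl1, the adaptor that binds the receptors' inner end, stood at 43.3 and 22.8 CPM, giving a ratio of 0.526 (0.480 to 0.576). Prkaa2, a catalytic subunit gene of AMP-activated kinase, had 212 counts in floxed and 6 in PreASKO cells, giving a ratio of 0.0366 (0.0133 to 0.0810). The other catalytic subunit gene, Prkaa1, was more abundant, with 1965 and 954 counts and a ratio of 0.627 (0.580 to 0.678). The ceramidase gene Acer2 had a ratio of 1.83 (1.49 to 2.24).

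Adipor1 and Adipor2 belong to the PAQR family of multi-pass membrane proteins, and 8 of its other genes were measured. Of these 6 were lower and 2 higher, and 1 was more than 2-fold higher, while scaling by matrix genes put the family's median log2 fold above 0. Paqr7, a membrane progestin receptor gene, had 124 counts in floxed and 423 in PreASKO cells, giving a ratio of 4.41 (3.60 to 5.43). Mmd, the monocyte to macrophage differentiation gene, had a ratio of 0.696 (0.584 to 0.828), and Paqr3 stood at 70 and 24 counts. The receptors' own divergence was thus seen within a family whose members ranged from log2 folds of -0.89 to 1.85.

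Leptin was the only member with under 30 counts in both libraries. Lep, at chr6:29060221-29073876, had 7 counts in the floxed and 25 in the PreASKO library, or 0.186 CPM (0.0746 to 0.383) and 0.857 CPM (0.555 to 1.27). The ratio was 4.62 (1.94 to 12.6), and the log2 fold on the log2(CPM + 1) scale was 0.65. Lep was thus higher in PreASKO in these 2 libraries, on few reads, and at under 1 CPM in each. All of its counts were repeat-distributed, although it has 1 RefSeq transcript, and 4.08% of tested genes with 1 transcript had 99% or more of their counts in that column, so the value is uncertain. The receptor gene Lepr was at 28.4 and 22.7 CPM, giving a ratio of 0.797 (0.722 to 0.879). Of 9 measured genes of leptin receptor signalling 4 were lower and 5 higher, and their median log2 fold was 0.00, or 0.75 after scaling by matrix genes. Socs3, a feedback inhibitor induced by leptin and by many cytokines, had a ratio of 1.61 (1.45 to 1.79), and the docking protein genes Irs1 and Irs2 had ratios of 0.585 and 0.713.

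Resistin was lower, while its relatives were higher. Retn, at chr8:3655770-3659818, had 104 counts in floxed and 30 in PreASKO cells, or 2.76 CPM (2.25 to 3.34) and 1.03 CPM (0.694 to 1.47). Its ratio was 0.373 (0.240 to 0.564). Retnla, which encodes resistin-like alpha, a product of alternatively activated mouse macrophages, had 58888 and 82017 counts, giving a ratio of 1.80 (1.78 to 1.82). Retnlg, a resistin-like gene of mouse neutrophils and bone marrow, had 282 and 374 counts, giving a ratio of 1.71 (1.46 to 2.01). Per kilobase of exon, Retnla stood at 2607 CPM per kilobase in floxed cells, Retnlg at 12.6 and Retn at 1.75. Counts of Retnla per count of Retn were 566 in floxed and 2734 in PreASKO, a difference by a factor of 4.83 (3.19 to 7.51). All counts of Retnla and Retnlg were raw and all of Retn repeat-distributed, so this factor sets the columns against each other and is uncertain. The 3 genes are paralogs, and whether the authors' counting split reads between them was not tested.

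Markers of cells known to make these relatives were higher as well. All 16 macrophage markers measured were higher in PreASKO. Their median log2 fold was 0.52, and their summed share of counts was 1.55% in floxed and 2.31% in PreASKO cells. Of 10 tested neutrophil markers 9 were higher, with a median of 1.63 that ranged from 0.57 to 2.47 over the alternatives, and the list summed to 234 and 463 CPM. The part of these cells in the values of Retnla and Retnlg was not tested. Among proposed resistin receptors, Tlr4 had a ratio of 0.978 (0.932 to 1.03) and Cap1, an actin-binding protein gene, one of 1.40 (1.35 to 1.46). Ror1, a receptor tyrosine kinase gene, had 186 and 49 counts, and Dcn, a matrix proteoglycan gene, stood at 4709 and 2445 CPM.

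**Figure D2:**
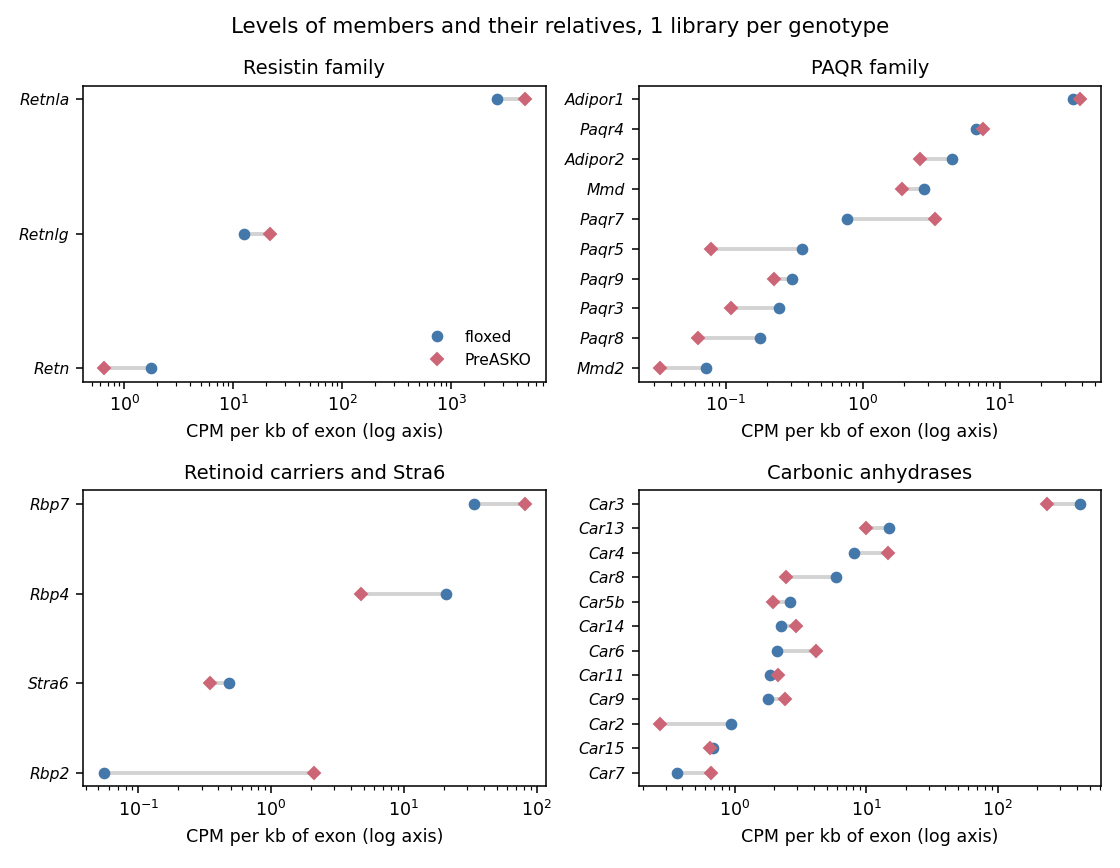
Levels in CPM per kilobase of exon, on log axes, 1 library per genotype. The genes are those of the resistin family, the PAQR family and the carbonic anhydrases, with Rbp4, Rbp7, Rbp2 and Stra6. Genes under 10 counts in both libraries, or at 0 counts in either, are left out. Retn, Rbp4, Car3 and Adipor2 have the PreASKO point to the left, whereas Retnla, Retnlg, Rbp7 and Paqr7 have it to the right. Levels are scaled to library totals, and scaling by matrix genes puts Adipor2 at a ratio of 0.998.

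Rbp4, whose product carries retinol in blood and is released by liver and fat, had the lowest ratio of the 10. At chr19:38116620-38125321, it had 1045 counts in the floxed and 186 in the PreASKO library, or 27.7 CPM (26.1 to 29.4) and 6.38 CPM (5.49 to 7.36). The ratio was 0.230 (0.196 to 0.269), and it stayed below equal levels, at 0.393 (0.334 to 0.459), after scaling by matrix genes. Against Plin1 the counts of Rbp4 differed by a factor of 0.364 (0.307 to 0.429), so Rbp4 was lower in PreASKO relative to the perilipin gene, beyond counting error. Adipoq counts per count of Rbp4 were 8.53 in floxed and 19.9 in PreASKO cells. Raw counts alone were 12 and 3, and 98.8% of its counts were repeat-distributed. Rbp4 has 2 RefSeq transcripts.

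Mesothelial markers were the lowest of the cell type lists beside Rbp4. All 10 were more than 2-fold lower in PreASKO. Their median log2 fold was -3.41, and they summed to 222 CPM in floxed and 19.6 CPM in PreASKO cells. Upk3b, a uroplakin gene of mesothelium, stood at 42.4 and 0.857 CPM, and Upk1b, another, was at 0 in PreASKO, with 292 counts in floxed cells. Whether mesothelial cells bear on Rbp4 was not tested. Among retinoid partners, the intracellular carrier gene Rbp7 stood at 24.1 and 58.2 CPM, giving a ratio of 2.42 (2.23 to 2.62), opposite to Rbp4. Stra6, which encodes a cell surface receptor for RBP4, had 105 and 59 counts, giving a ratio of 0.726 (0.519 to 1.01). Of 5 tested genes of this list other than Rbp4, 2 were lower and 3 higher.

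Cfd, which encodes adipsin, the complement factor D protease that cleaves factor B, was lower by less. At chr10:79890853-79892655, it had 821 counts in floxed and 504 in PreASKO cells, or 21.8 CPM (20.3 to 23.3) and 17.3 CPM (15.8 to 18.9). Its ratio was 0.793 (0.709 to 0.888), and 1.35 (1.21 to 1.51) after scaling by matrix genes. Relative to Plin1, Cfd was higher in PreASKO by a factor of 1.25 (1.11 to 1.42). Other genes of the alternative complement pathway were 5 lower and 7 higher of 12 tested, and their median log2 fold was 0.11. C3, the central complement component and partner of adipsin's target, stood at 1793 and 1506 CPM, giving a ratio of 0.840 (0.830 to 0.850). Cfb, the substrate of adipsin, had a ratio of 1.27 (1.25 to 1.29) and Cfp, properdin, a stabiliser made by myeloid cells, one of 1.71 (1.68 to 1.73). Hc, complement C5, had 135 and 33 counts, and Cd55, a membrane inhibitor gene, had a ratio of 0.611.

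Nampt, the rate-limiting enzyme of NAD salvage that is also released as visfatin, was lower. At chr12:32820335-32853369, it had 925 counts in floxed and 411 in PreASKO cells, or 24.5 CPM (23.0 to 26.2) and 14.1 CPM (12.8 to 15.5). Its ratio was 0.574 (0.510 to 0.646), and 0.980 (0.870 to 1.10) after scaling by matrix genes. The non-coding gene Gdap10 lies inside Nampt on the same strand in the GENCODE annotation, so reads there could be shared or split in the counting. Of 14 other NAD genes 8 were lower and 6 higher, and their median log2 fold was -0.26, with a median above 0 for the whole list after scaling by matrix genes. Nmnat1, the enzyme after Nampt in the nucleus, had 202 and 69 counts, giving a ratio of 0.441 (0.331 to 0.583). Qprt, which feeds NAD from tryptophan, had a ratio of 0.385 (0.280 to 0.521). Cd38, an enzyme that consumes NAD and is abundant on immune cells, was higher, at 30.7 and 53.9 CPM, giving a ratio of 1.76 (1.63 to 1.90).

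Adig, adipogenin, a small membrane protein gene of differentiating adipocytes, was lower by a margin like that of Cfd. At chr2:158502612-158508198, it had 766 counts in floxed and 460 in PreASKO cells, or 20.3 CPM (18.9 to 21.8) and 15.8 CPM (14.4 to 17.3). Its ratio was 0.776 (0.690 to 0.872), and 1.32 (1.18 to 1.49) after scaling by matrix genes. Adig counts per count of Plin1 differed by a factor of 1.23 (1.08 to 1.39), and Adipoq counts per count of Adig by 0.692 (0.611 to 0.783). Adig was thus less low in PreASKO than either gene.

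Car3, a cytosolic carbonic anhydrase of adipocytes and skeletal muscle, was the most abundant of the 10 genes per kilobase of exon in both libraries. At chr3:14863538-14872381, it had 45784 counts in floxed and 19728 in PreASKO cells, or 1214 CPM (1203 to 1225) and 676 CPM (667 to 686). Its ratio was 0.557 (0.548 to 0.566), and 0.95 (0.934 to 0.966) after scaling by matrix genes. Adipoq counts per count of Car3 were 0.195 in floxed and 0.188 in PreASKO, a difference by a factor of 0.964 (0.924 to 1.01) that lies within counting error of 1. All but 18 of its floxed and 11 of its PreASKO counts were repeat-distributed, although Car3 has 1 RefSeq transcript, so its level is uncertain. The 12 skeletal muscle markers summed to 58.3 CPM in floxed and 54.0 CPM in PreASKO cells. Of the 12 markers, 8 were lower and 4 higher in PreASKO. Acta1, the most abundant, had 587 counts in floxed and 753 in PreASKO cells. The next most abundant in floxed cells were Des, with 432 and 162 counts, and Mylpf, with 287 and 222. The muscle creatine kinase gene Ckm, with the fewest floxed counts of the 12, had 10 and 14. None of the 12 was at 0 in either library. The part of muscle cells in the level of Car3 was not tested.

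Other carbonic anhydrase genes did not follow Car3 as a family. Of 13 tested relatives 7 were lower and 6 higher, and their median log2 fold was -0.04. After scaling by matrix genes the median of the whole list, Car3 included, was 0.35. Car8, a family member without catalytic activity, had 857 and 274 counts, giving a ratio of 0.413 (0.359 to 0.474), and Car2, a fast cytosolic enzyme gene, had 86 and 19 counts. Car4, an enzyme anchored in the membrane of capillary endothelium and other cells, had a ratio of 1.81 (1.63 to 2.02), and the secreted enzyme gene Car6 one of 1.98 (1.60 to 2.46).

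Levels can be ordered between genes only per length. In floxed cells the order per kilobase of exon ran Car3 at 424 CPM per kilobase, Adipoq at 171, Adipor1 at 34.7, Adig at 25.1, Cfd at 23.6, Rbp4 at 20.6, Nampt at 4.85, Adipor2 at 4.47, Retn at 1.75 and Lep at 0.0554. The counting intervals of the neighbours Adig and Cfd overlapped, as did those of Nampt and Adipor2, so these pairs have no order. In PreASKO cells the order was the same, from Car3 at 236 and Adipoq at 91.9 through Rbp4 at 4.75 to Retn at 0.651 and Lep at 0.256. Cfd, next above Rbp4, stood at 18.7 there. Exon lengths are unions over GENCODE transcripts and may differ from the authors' annotation.

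**Figure D3:**
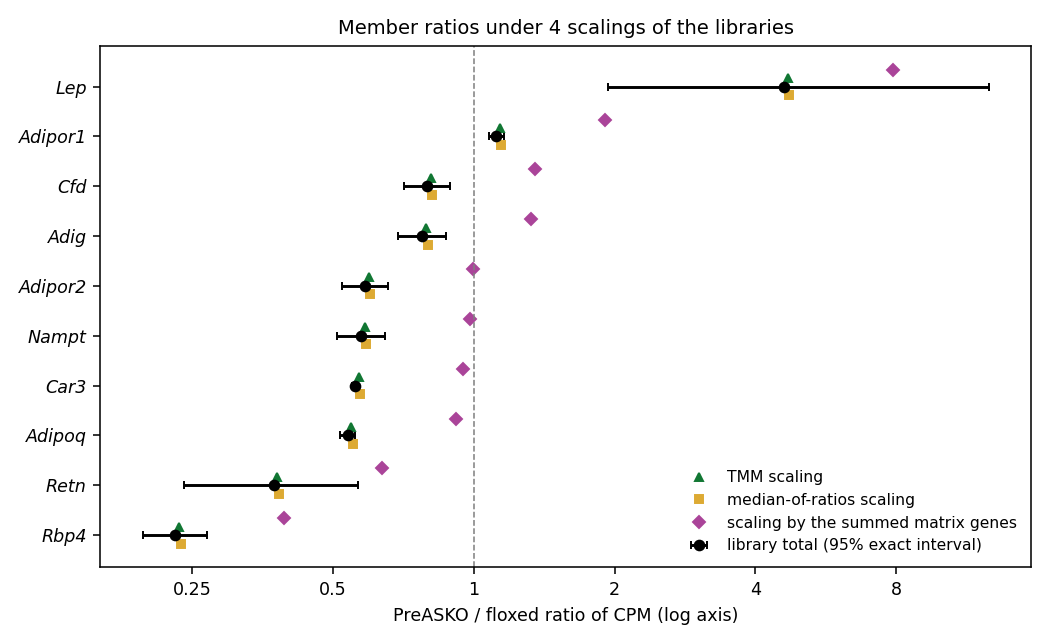
Ratio of PreASKO to floxed levels for the 10 genes, on a log axis, scaled by library total with exact 95% intervals (black) and by TMM, median of ratios and summed matrix genes. Under the first 3 scalings 8 genes lie below 1, and under scaling by matrix genes Adig and Cfd lie above 1 while Adipor2, Nampt, Car3 and Adipoq lie between 0.916 and 0.998.

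Of 18 matrix genes used for scaling 17 were lower in PreASKO, and they summed to 5.12% of floxed and 3.00% of PreASKO counts, giving a ratio of 0.586. Relative to that sum, Rbp4 and Retn were still lower, at ratios of 0.393 and 0.636 (0.409 to 0.963), and Adipor1 and Lep were still higher, at 1.91 and 7.88 (3.31 to 21.6). Scaling by matrix genes moved the median log2 fold of all tested genes from -0.06 to 0.58. Of 16 measured precursor and stromal genes 14 were lower, and their median log2 fold was -0.77, among them Pdgfra at a ratio of 0.607 (0.577 to 0.639). The matrix and stromal lists share genes, among them Col1a1, Lum and Dcn. The part of the stromal share in the member values was not tested.

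Lipid genes of adipocytes were mostly lower too. Of 22 such genes 19 were lower and 3 higher in PreASKO, and their median log2 fold was -0.45, or 0.30 after scaling by matrix genes. Their summed share of counts was 0.665% in floxed and 0.509% in PreASKO cells. Cidec had a ratio of 0.557 (0.514 to 0.603), Plin1 one of 0.632 (0.603 to 0.663) and Lpl, the lipoprotein lipase gene, one of 0.648. Cd36, a fatty acid uptake gene, had a ratio of 0.814, Fabp4 one of 0.870 (0.857 to 0.884) and the hormone-sensitive lipase gene Lipe one of 0.857. Among factors that switch on adipokine genes, Pparg had a ratio of 0.840 (0.807 to 0.874) and Cebpa one of 1.19 (0.899 to 1.57), the second within counting error of equal levels. Of 13 adipogenic factor genes 9 were lower and 4 higher, and their median log2 fold was -0.19, or 0.52 after scaling by matrix genes. Klf5 and Ebf2 had ratios of 0.132 and 0.383, and Klf15 one of 2.34.

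Markers of the remaining cell types gave these values. Each of 6 erythroid markers was higher in PreASKO, and their median log2 fold was 1.04, the haemoglobin gene Hbb-bs standing at 304 and 628 CPM. Endothelial markers were 4 lower and 6 higher of 10, with a median of 0.05, and skeletal muscle markers 8 lower and 4 higher of 12, with a median of -0.29, or 0.15 after scaling by matrix genes.

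**Figure D4:**
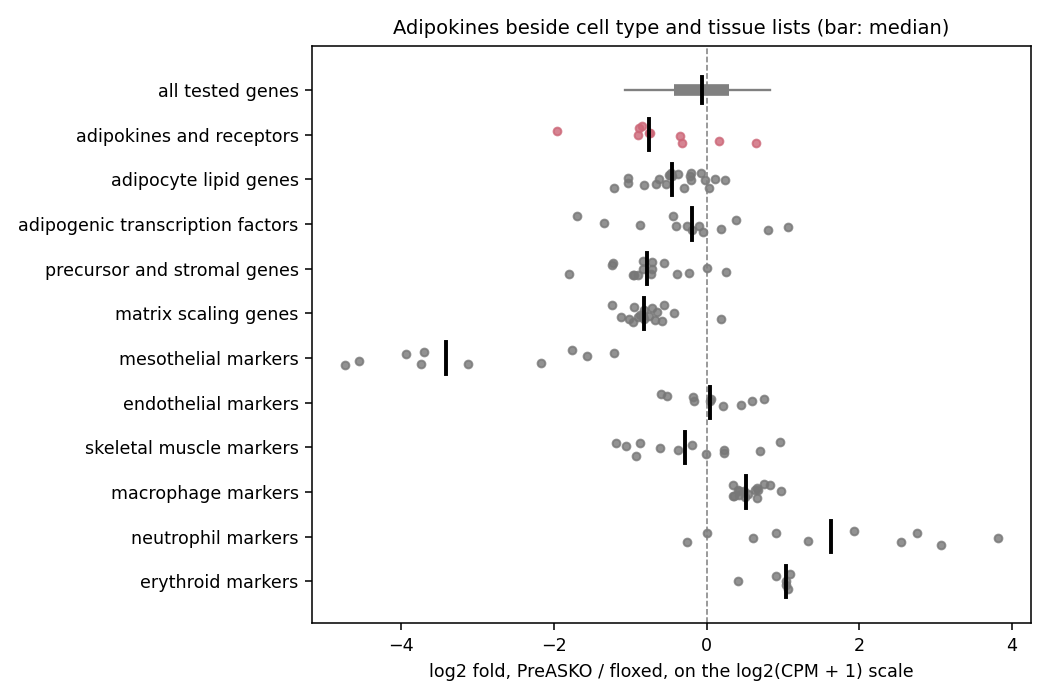
Log2 fold of PreASKO over floxed on the log2(CPM + 1) scale for the 10 adipokine and receptor genes (red) and for lists of lipid, factor, stromal, matrix and cell type genes (grey), each point a tested gene and each black bar a median, with all tested genes above as a box from the 25 to the 75 percentile and a line from the 5 to the 95 percentile. The median of the 10, at -0.75, lies near those of precursor and stromal genes, at -0.77, and matrix genes, at -0.82. These lists share genes, among them Col1a1, Lum and Dcn, so they are not separate comparisons. The median of adipocyte lipid genes, at -0.45, lies above that of the 10. Scaling by matrix genes moves the lipid median above 0 and that of the 10 to -0.016.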

How the data were processed

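The authors deposited 1 table of 24862 genes. Per the file headers it holds raw counts and repeat-distributed counts per gene and library, the authors' fold ratio of PreASKO over floxed and its log2. The deposited repeat-distributed values were read as estimated counts of reads that fit several annotated sequences, an inference from header and values. Of these values 99.7% lie within 0.01 of a whole number, and their share of all counts is 49.1% in the floxed and 50.6% in the PreASKO library. Of tested genes with 1 RefSeq transcript 88.3% had raw counts alone, against 7.04% of genes with more. Per the submitters' processing notes the build was mm10, while aligner and counter were not given in the sources used here. RNA was extracted with Trizol and was selected for mRNA on beads, per the labels' protocols, which also name a PDGFRa stain without saying how it was used.

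Both counts were summed per gene, rounded and scaled to the library total. The authors' deposited log2 fold equals the log2 ratio from these sums within 0.01 for all 10 members, and for 78.6% of 14618 genes that reached 20 counts in each library. Genes reaching 10 counts in either library, called tested genes, were counted as past the fold when they differed more than 2-fold on the log2(CPM + 1) scale. With 1 library per genotype no test was run. Intervals are exact Poisson for levels, exact conditional for ratios and for ratios of count pairs within libraries, at 95%. Alternatives were TMM factors (edgeR 4.0.16, R 4.3.3) of 1.01 and 0.991, median-of-ratios factors, scaling by 18 matrix genes, each count column alone, the authors' log2 fold, pseudocounts of 0.1 and 5, no filter and a filter of 100 counts. Python 3.11.15 with scipy 1.17.1 and pandas 2.3.3 was used, and the calculation was tested on simulated data. Symbols were matched to RefSeq GRCm38.p6 by gene ID for 93.3% of genes. Lists were written from textbook knowledge. Members and lists were chosen with earlier results of these data known. Named were all members, their receptors and relatives, the 3 largest log2 folds of each pathway or family list among those reaching 100 counts in either library, and the 3 most abundant genes of each marker list, of which some are left out, and 1 gene is not reported here. Upk1b, Ckm, Pdgfra, Dlk1, Lum, Mpo and Prkaa1 were named after their values were seen.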

Additional observations from a re-analysis of the deposited data

How the results depend on the processing

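With 1 pooled library per genotype, no replicate could be left out. No paired analysis was possible because each genotype has 1 library. Of 336 values recomputed under 10 alternatives, 11 changed sign among those whose interval excluded 0. For a single gene this was its counting interval. For a median it ran from the median of the genes' lower limits to the median of their upper limits. That range is no counting interval of the median itself. TMM and median-of-ratios scaling left 8 of the 10 members lower, with medians of -0.72 and -0.71. Scaling by the summed matrix genes left 6 lower, with a median of -0.016, moved the log2 folds of Cfd and Adig to 0.42 and 0.38, and moved list medians to 0.11 for PAQR genes, 0.40 for NAD salvage, 0.36 for C1q/TNF-related proteins, 0.14 for other secreted adipose factors, 0.30 for adipocyte lipid genes and 0.52 for adipogenic factors. Under it 336 of all tested genes were more than 2-fold lower and 4052 higher, against 1124 and 587. Raw counts alone measured 5 members, all 5 lower, with a median of -0.43, and gave medians of 0.074 for NAD salvage and 0.47 for C1q/TNF-related proteins. Repeat-distributed counts alone measured 7, of which 5 were lower. The authors' deposited log2 fold gave 3457 genes lower and 1735 higher, a pseudocount of 0.1 gave 3231 and 1606, and 5 gave 165 and 84 with a member median of -0.49. A filter of 100 counts left 328 genes higher and gave PAQR genes a median of 0.16. On raw counts alone the log2 fold of Car3 was -0.14 and that of Rbp4 -0.43, against -0.84 and -1.96. These raw values rest on 18 floxed and 11 PreASKO counts for Car3 and on 12 and 3 for Rbp4. At such low levels the added 1 CPM understates the difference, and so few counts carry wide counting error. How far these account for the gap was not tested, so the raw values are no check on those from both columns. The neutrophil median of 1.63 was 0.57 on repeat-distributed counts alone, 1.03 with a pseudocount of 5, 1.12 with no filter and 2.47 on raw counts alone. The cause was not tested. Depth limits Lep and Retn, whose intervals are the widest.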

Other observations

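Relatives of adiponectin and further secreted factors of fat were measured alongside. Of 12 C1q/TNF-related and C1q genes 9 were lower and 3 higher in PreASKO. Their median log2 fold was -0.37, or 0.36 after scaling by matrix genes. Scaled by library totals, all 9 C1q/TNF-related genes were lower, though C1qtnf9, with a ratio of 0.971 (0.777 to 1.21), was within counting error of equal levels. C1qtnf7 had a ratio of 0.443 (0.367 to 0.534), C1qtnf2 one of 0.555 (0.469 to 0.654), C1qtnf3 had 103 counts in floxed and 25 in PreASKO cells, and C1qtnf12, listed under its older symbol Fam132a, had a ratio of 0.755 (0.685 to 0.831). The 3 higher genes were C1qa, C1qb and C1qc, which encode the C1q complex of macrophages and share its globular fold with adiponectin, with log2 folds of 0.67, 0.43 and 0.63. These 3 genes are themselves among the 16 macrophage markers above, so that list is no separate observation beside them. The part of macrophages in these 3 values was not tested.

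Of 20 tested genes for other secreted adipose factors and their receptors 16 were lower and 4 higher. Their median log2 fold was -0.32, or 0.14 after scaling by matrix genes. Fndc5, the precursor gene of irisin, had 193 and 15 counts, a ratio of 0.10 (0.0551 to 0.170). Fstl1, a follistatin-like glycoprotein gene of stromal cells, stood at 588 and 318 CPM, and Rarres2, the chemerin gene, at 275 and 180 CPM. Its receptor gene Cmklr1 stood at 262 and 432 CPM, higher in PreASKO. Hp, haptoglobin, had 178 and 330 counts, a ratio of 2.40 (1.99 to 2.89). Angptl4, an inhibitor gene of lipoprotein lipase, differed little, at 175 and 167 CPM. Cmklr1, Rarres2, Angptl4, C1qtnf9, C1qtnf12 and C1qa were named after their values were seen.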
